A study of Mus musculus with 6 samples.

Results

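Kcnj10 and Kcnj16 encode Kir4.1 and Kir5.1, subunits of inwardly rectifying potassium channels. Both genes were chosen by their measured signals, which differed between the developing and the adult mouse cochlear sensory epithelium (CSE), so that difference is described here without a test. Of 45101 probe sets on the array, each a group of short probes against the same transcript, 34945 named a single gene. Among these, 1 named Kcnj10 and 2 named Kcnj16. A filter kept the 29036 probe sets whose signal exceeded background on 3 arrays or more. All 3 passed it, those of Kcnj16 through the adult arrays and 2 of the P3 arrays. RNA came from CSE of Swiss Webster mice at postnatal day 3 (P3) and at an adult age of 8 weeks, with 3 arrays per stage and a pool of 20 mice on each array. The sources name no transgene, deletion or treatment, and each pool came from a separate dissection. According to the methods, the stria vascularis and the spiral ligament were dissected away together with the modiolus, and the P3 tissue still held the greater and lesser epithelial ridges that the adult tissue lacks.

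Inward rectifiers carry potassium more easily into a cell than out of it and hold the membrane near the potassium equilibrium potential. Kir5.1 carries little or no current by itself and assembles with Kir4.1 into a channel that closes when the cytoplasm turns acid. In the cochlea, Kir4.1 is known from intermediate cells of the stria vascularis, where it helps to generate the endocochlear potential, and from supporting cells and the satellite glia of the spiral ganglion. Kir5.1 is known from fibrocytes of the spiral ligament. In bulk tissue of this kind, fewer cells of a type and less RNA per cell cannot be told apart.

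Kcnj10 lies on chromosome 1 of the mouse genome build GRCm38.p6, between positions 172341210 and 172374085, and Kcnj16 on chromosome 11, between 110968033 and 111027968. RefSeq gives Kcnj10 1 start site and Kcnj16 4 in the promoter table of that build. The 250 bases before the Kcnj10 start and before the first Kcnj16 start are printed because both genes had a higher signal in the adult, and they show how unlike these flanking sequences are. Capitals mark matches, on either strand, to the GC box (GGGCGG), the CCAAT box (CCAAT), the TATA box (TATAAA) or the SOX core letters ACAAAG and ACAATG. No pair of the matches overlaps.
Kcnj10, chr1:172340960-172341209, plus strand: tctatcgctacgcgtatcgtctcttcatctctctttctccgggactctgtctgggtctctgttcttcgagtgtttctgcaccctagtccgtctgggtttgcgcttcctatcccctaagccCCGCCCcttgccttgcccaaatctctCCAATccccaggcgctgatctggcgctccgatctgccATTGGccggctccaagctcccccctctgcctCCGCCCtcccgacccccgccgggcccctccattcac
Kcnj16, chr11:110967783-110968032, plus strand: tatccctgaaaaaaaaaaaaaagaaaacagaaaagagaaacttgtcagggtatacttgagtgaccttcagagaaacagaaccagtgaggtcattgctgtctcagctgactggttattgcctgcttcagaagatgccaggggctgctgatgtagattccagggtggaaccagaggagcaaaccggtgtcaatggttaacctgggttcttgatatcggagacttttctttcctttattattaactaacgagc

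The Kcnj10 window held 62% G and C. It had 2 matches to the GC box, which begin 130 and 36 bases before the start, and 2 to the CCAAT box, which begin 104 and 67 bases before it. The first Kcnj16 window held 42.8% G and C and none of the letters searched. The window of the second Kcnj16 start had no match either. The third held TATAAA 133 bases before the start, and the fourth held CCAAT and GGGCGG 60 and 46 bases before it. Over 32851 windows of this length before the starts of all genes in the table, the median content of G and C was 52.4%. The GC box was found in 32.7% of them, the CCAAT box in 33.8%, the TATA box in 12.4%, ACAAAG in 16.5% and ACAATG in 10.7%. These matches are descriptions of letters and were not tested as binding sites.

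The authors computed MAS5.0 signals, intensities on a linear scale, for each probe set. Each array was given a background level, below which 90% of its signals for 83 receptors of smell, pheromones and bitter taste lay, and this level ran from 6.29 to 34.5. P3 replicate 1 stood apart from the other arrays. It had the highest background level, and its 3' to 5' signal ratio for Gapdh was 82.0, against 0.707 to 2.07 elsewhere. The differences of Kcnj10 and Kcnj16 are therefore also given without it, and other values mainly where leaving it out ended or made a call. Among the adult arrays, replicate 1 had the highest background level, 16.3 against 9.05 and 8.71 on replicates 2 and 3. Its Gapdh ratio was also the highest of these, 2.07 against 0.921 and 1.22. Markers of the labelled tissue were present in part. Sox2, a transcription factor of supporting cells, and Myo7a, a myosin of hair cells, were above background on all 6 arrays. Slc26a5, the motor protein of outer hair cells, was above background on none.

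Kcnj16 had the larger difference between the stages. At its probe set of highest mean signal, 1435094_at, the P3 arrays gave signals of 27.5, 54.5 and 40.3 in the order of their replicate numbers, and the adult arrays gave 673, 1023 and 854. The adult arrays all lay far above the P3 arrays, with no overlap, and the lowest adult signal was 12.4-fold the highest P3 signal. The mean was 40.8 ± 13.5 at P3 and 850 ± 175 in the adult (SD, n = 3 arrays). The difference of adult minus P3 was 4.42 on the log2 scale (limma's moderated SE 0.31, the error given for every log2 difference), a fold of 21.4 between geometric means. The 9 ratios of an adult to a P3 array ran from 12.4 to 37.2. Of the 29036 probe sets measured, 0.2% had a larger rise on the log2 scale, and this one stood 59th by size.

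The second Kcnj16 probe set, 1436163_at, gave the same direction. The P3 arrays gave 27.3, 43.7 and 33.4 and the adult arrays 293, 886 and 513, in the same order. Here too the stages did not overlap, with the lowest adult signal at 6.71-fold the highest P3 signal. The log2 difference was 3.90 (SE 0.41), a fold of 14.9, which is 0.52 less on the log2 scale than at the first probe set. Both probe sets ordered the P3 arrays alike, with replicate 2 highest and replicate 1 lowest, and both ordered the adult arrays alike, with replicate 2 highest and replicate 1 lowest. The adult arrays were closer together at the first probe set, where the highest was 1.52-fold the lowest, than at the second, where it was 3.02-fold. Across the 6 arrays the log2 signals of the probe sets had a Pearson r of 0.988, and their deviations from the stage means had an r of 0.81. These correlations rest on the same 6 RNA samples and are descriptions.

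At P3 the place of the Kcnj16 signal relative to the background level differed between the arrays, and only P3 replicate 1 was below that level. On P3 replicate 1 both probe sets were below it, at 0.796 and 0.791 of the level. On P3 replicates 2 and 3 the first probe set was at 5.95 and 6.40 times the level and the second at 4.78 and 5.31 times. In the adult they were at 18.0 to 113 times the level. Without P3 replicate 1 the log2 difference of the first probe set was 4.16, a fold of 17.9, and that of the second was 3.74, a fold of 13.4.

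Kcnj10 was well above background at both stages. At its only probe set, 1419601_at, the P3 arrays gave 232, 248 and 186 and the adult arrays gave 454, 993 and 1117, in the order of their replicate numbers. The P3 arrays were close together, the highest being 1.33-fold the lowest, while the adult arrays spread by 2.46-fold with replicate 1 far below the others. The stages did not overlap, and the lowest adult signal was 1.83-fold the highest P3 signal. The mean was 222 ± 32.0 at P3 and 855 ± 353 in the adult (n = 3 arrays each, SD). This is a log2 difference of 1.85 (SE 0.35) and a fold of 3.61. The signal was at 6.73 to 29.6 times the background level on the P3 arrays and at 27.9 to 128 times on the adult arrays. Without P3 replicate 1 the difference was 1.89, a fold of 3.70. With a single probe set, no agreement between probe sets of Kcnj10 could be examined.

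**Figure D1:**
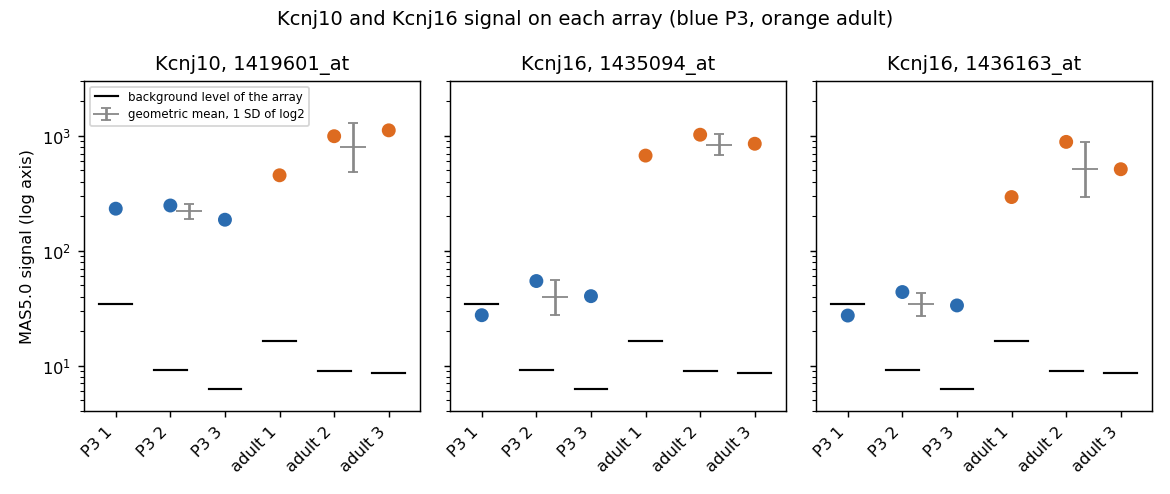
MAS5.0 signal (log axis) of the Kcnj10 probe set and of both Kcnj16 probe sets on the 3 P3 arrays (blue) and the 3 adult arrays (orange), with the background level of each array as a black line and the geometric mean with 1 SD of the log2 signals in grey. All adult points lie above all P3 points in each panel, and both Kcnj16 probe sets are under the background level on P3 replicate 1.

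The genes differed from each other in size of difference and in the spread of the adult arrays. The log2 difference of Kcnj10 was smaller than those of the Kcnj16 probe sets by 2.57 and 2.05. Leaving out any single array gave 1.61 to 2.26 for Kcnj10, 4.16 to 4.65 for the first Kcnj16 probe set and 3.50 to 4.30 for the second, so the ranges of the genes did not meet. The highest value for Kcnj10, a fold of 4.78, came without adult replicate 1. As background, a probe set was called where limma's p, adjusted by the method of Benjamini and Hochberg, was below 0.05 and the fold reached 2. The shares that follow include the probe sets of Kcnj10 and Kcnj16, whose own calls are not given. Of all probe sets measured 7.26% were called, 3.39% as higher in the adult and 3.87% as higher at P3. In 31.1% the signals of the stages did not overlap, and in 15.5% the adult was the higher stage, as it was in all 3 probe sets of Kcnj10 and Kcnj16. Nothing is read from this, since the same contrast chose them.

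Across the 6 arrays, Kcnj10 and the Kcnj16 probe sets had a Pearson r of 0.927 and 0.957, values that include the stage difference. The deviations from the stage means had an r of 0.458 with the first Kcnj16 probe set and of 0.739 with the second. Adult replicate 1 was the lowest adult array for all 3 probe sets, at 0.81, 0.32 and 0.80 log2 units below the adult mean for Kcnj10 and the first and second probe sets of Kcnj16. The highest adult array was replicate 3 for Kcnj10 and replicate 2 for Kcnj16.

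The probe sets most like each gene were looked up among 24760 that named another single gene, by Pearson r of log2 signals over the 6 arrays. The nearest to Kcnj10 were Atp13a5, a P-type ATPase (r = 0.998), A2m, the protease inhibitor alpha-2-macroglobulin (0.996), Shroom3, an actin-binding protein of epithelial cells (0.995), Sec11c, a subunit of the signal peptidase (0.995), and Zfp185 (0.994). Their log2 differences ran from 1.19 to 1.82. The nearest to Kcnj16 were S100a1, a calcium-binding protein (0.999), Slc4a10, a sodium bicarbonate transporter (0.998), Hspb8, a small heat shock protein (0.998), Mettl7a1 (0.997) and Ppp1r2, an inhibitor of protein phosphatase (0.997). The differences of these ranged from 0.35 for Ppp1r2 to 7.36 for Slc4a10. Pearson r does not depend on the size of a difference, so it cannot show whether sizes are alike. In all, 238 probe sets had an r over 0.95 with Kcnj10 and 461 with Kcnj16. With the stage means removed the nearest to Kcnj10 were Mon2, Akap8, Hnrnph1, Creb3l4 and Atrn (0.994 to 0.997), and those to Kcnj16 were AW495222, Virma, Csrnp1, Ctbs and Cirbp (0.997 to 0.999). The sets named with and without the stage means shared no gene.

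Too few other genes of the inward rectifier family were measured to set their share called apart from that of all genes. All 13 others looked up were on the array, and 7 passed the filter. The test called 1 of the 7, as higher in the adult. Of 13743 genes, each taken at its brightest probe set, 10.1% were called, 4.58% as higher in the adult and 5.54% as higher at P3. The 1 called was Kcnj15, which encodes Kir4.2, a close relative of Kir4.1. Its signal was 3.67, 10.6 and 6.18 on the P3 arrays and 43.1, 56.1 and 56.5 on the adult arrays. The adult arrays were all above the P3 arrays, and 1 of the P3 arrays was above background, so the size of the difference depends on how signals under background are treated. The log2 difference was 3.05 (SE 0.57, limma adjusted p = 0.0171), and it was not called without P3 replicate 3 (adjusted p = 0.0528), without adult replicate 2 (adjusted p = 0.0627) or without adult replicate 3 (adjusted p = 0.113). With signals floored at background the difference was 1.96 and the call was lost (adjusted p = 0.0704), and with the mean background added it was 1.67 (adjusted p = 0.00870). The call was also lost with all arrays scaled to the same median (adjusted p = 0.0623). The other Kcnj15 probe sets did not pass the filter.

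Kcnj13, which encodes Kir7.1 of ion-transporting epithelia, had the highest signals of the 6 that were not called. It gave 226, 191 and 180 at P3 and 222, 191 and 372 in the adult, where replicate 3 alone stood above all P3 arrays (log2 difference 0.34, limma adjusted p = 0.521). Kcnj8 and Kcnj11 encode the pore subunits of channels that ATP closes. Their means were 68.4 and 57.3 at P3 and 58.3 and 52.4 in the adult, with overlapping arrays. Kcnj12, a strong rectifier of excitable cells, had a log2 difference of 0.92 (SE 0.74). Kcnj3 and Kcnj6, subunits of channels opened by G proteins, had differences of -0.39 (SE 0.82) and -1.27 (SE 1.14). Kcnj1, Kcnj2, Kcnj4, Kcnj5, Kcnj9 and Kcnj14 did not pass the filter. The median log2 difference of the 7 was -0.12, beside -0.04 over all 13743 genes.

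Genes of proteins that bind or lie beside Kir4.1 or Kir5.1 were also looked up. Of 11 genes listed, 10 were named on the array and 9 passed the filter. By limma none was called at either stage, beside 10.1% of all genes called, and SAM, the test of the methods, called none. With so few genes nothing is read from this count. By limma 1 had an unadjusted p under 0.05, as had 6873 of the 29036 probe sets measured. That 1 was Dmd, which encodes dystrophin, with a log2 difference of -0.93 (SE 0.34, adjusted p = 0.138). Without P3 replicate 1 it was called higher at P3. Dag1, the dystroglycan that ties the dystrophin complex to the matrix, had a difference of -0.54, and Dtna, the dystrobrevin of the same complex, of 0.50. Dlg4 and Dlg1, scaffolds with PDZ domains, had 0.84 and 0.36, and Magi1, another such scaffold, had -0.87. Aqp4, the water channel that lies beside Kir4.1 in glial endfeet, gave 209, 299 and 172 at P3 and 919, 177 and 164 in the adult, so that adult replicate 1 alone stood above all P3 arrays (log2 difference 0.44, limma adjusted p = 0.711). Without that array the difference was -0.37. Cav1, a protein of caveolae, had 0.50 and Nedd4l, a ubiquitin ligase, had -0.04. Casr, a calcium-sensing receptor, was above background on no array. The median of the 9 was 0.36.

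Several other genes of cochlear potassium movement were higher in the adult. Of 16 genes listed, 11 were named on the array and measured, and the test called 5, each higher in the adult, beside the 10.1% of all genes called and the 4.58% called higher in the adult, with a median log2 difference of 0.93. Slc26a4, the anion exchanger pendrin of root and spindle cells, rose from 107, 109 and 111 on the P3 arrays to 891, 3120 and 1800 on adult replicates 1, 2 and 3. This order of the adult arrays, with replicate 2 highest and replicate 1 lowest, is that of Kcnj16. Gjb6 and Kcne1 of this list had the same order. With 3 arrays few orders are possible, so nothing is read from it. The log2 difference of Slc26a4 was 3.97 (SE 0.40, limma adjusted p = 0.00168). Gjb6, the gap junction protein connexin 30, had a rise of 2.19 log2 units (SE 0.32) and Atp1b2 and Atp1b1, beta subunits of the sodium pump, had rises of 2.17 (SE 0.33) and 1.90 (SE 0.39). Slc12a7, a potassium chloride cotransporter, rose by 2.04 (SE 0.24). The count was between 4 and 6 without any single array. Atp1b1 lost its call when P3 replicate 3 or any adult array was left out (adjusted p = 0.0570, 0.0533, 0.0587 and 0.120).

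The strial channel subunits Kcnq1 and Kcne1, through which potassium enters the endolymph, were not called. Kcne1 gave 159, 152 and 258 at P3 and 84.3, 718 and 695 in the adult, with adult replicate 1 below all P3 arrays (log2 difference 0.92, limma adjusted p = 0.503). Without adult replicate 1 it was called, with a difference of 1.94. Kcnq1 had a log2 difference of 0.54 (SE 0.56). Slc12a2, the cotransporter that loads strial cells with potassium, and Gjb2, connexin 26, were not called either, at 0.41 (SE 0.36) and 0.93 (SE 0.35), and Gjb2 was called without P3 replicate 1.

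The same shares of all genes stand beside the counts of the lists that follow. Of 8 potassium channel genes listed for hair cells, 4 could be measured and 2 were called higher in the adult, with a median of 2.69. Kcnc1, a voltage-gated channel of fast-firing cells, had the larger rise, 4.51 in log2 units (SE 0.52, limma adjusted p = 0.00251). Kcnn2, the channel opened by calcium at the efferent synapse of hair cells, rose by 3.17 (SE 0.39). On adult replicates 1, 2 and 3 Kcnc1 gave 1554, 348 and 452, with replicate 1 highest, and Kcnn2 gave 202, 385 and 561, with replicate 1 lowest. Which cells carried these signals was not tested. Kcnma1, the large-conductance channel opened by calcium, had 2.22 (SE 0.75, limma adjusted p = 0.115) and was called by SAM, and Kcnd3, a channel of the A-type current, had -0.48 (SE 0.63). Of 9 two-pore background channels, 7 were measured and 2 were called higher in the adult, with a median of 0.87. Kcnk1 rose by 1.64 (SE 0.24, limma adjusted p = 0.00641), and 1 of its 2 measured probe sets was called. Kcnk5 rose by 2.26 (SE 0.52, adjusted p = 0.0351). Kcnk5 lost its call when P3 replicate 2 or any adult array was left out (adjusted p = 0.0777, 0.104, 0.0697 and 0.158).

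**Figure D2:**
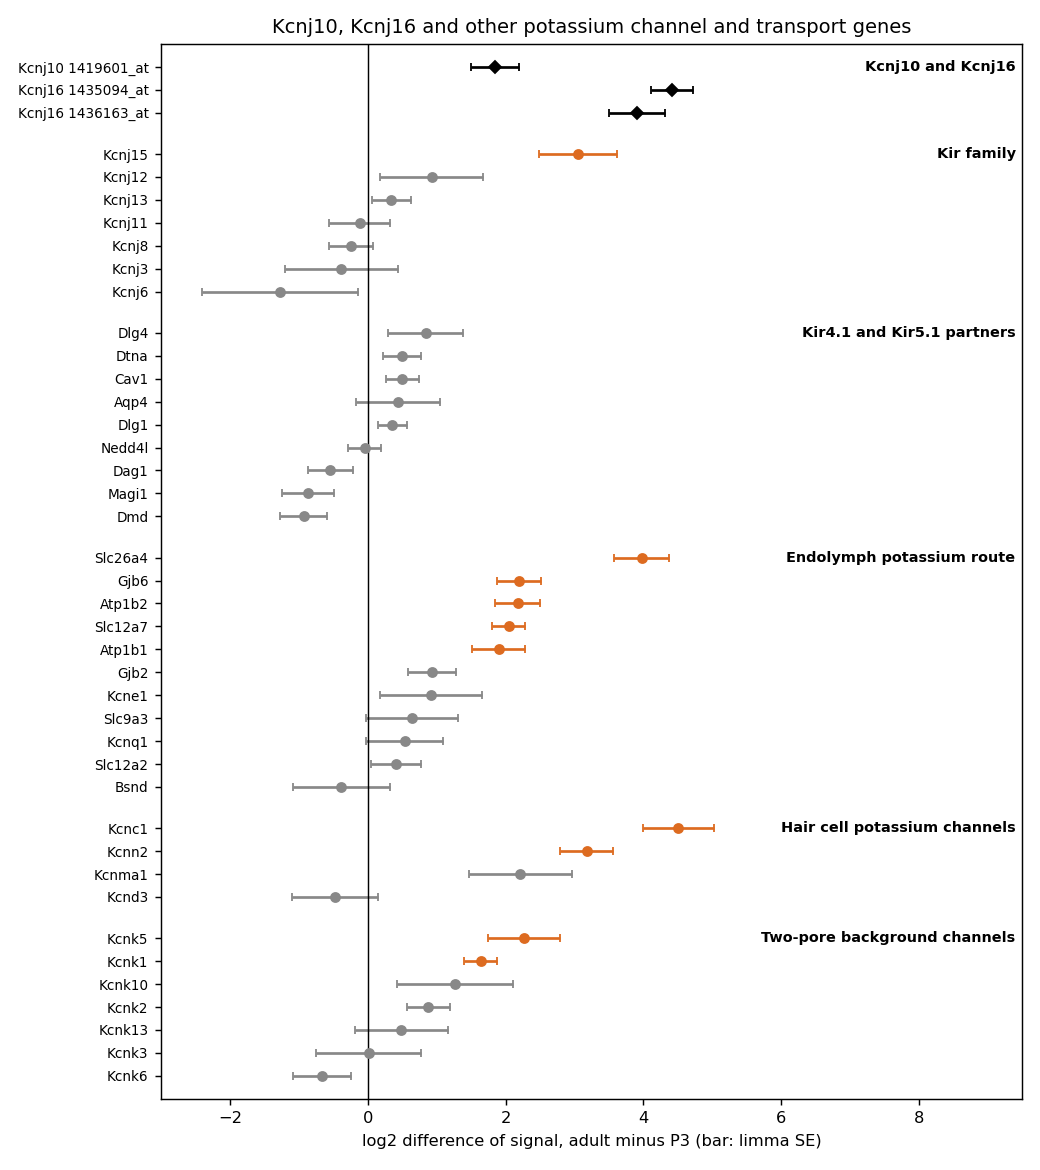
Log2 difference of the signal (adult minus P3, horizontal axis) with limma's SE as the bar, for the 3 probe sets of Kcnj10 and Kcnj16 (black, not tested) and for the brightest probe set of each measured gene of 5 lists, called higher in the adult (orange) or not called (grey). Both Kcnj16 probe sets, at 4.42 and 3.90, lie to the right of every other measured Kir gene, and Kcnj10 is at 1.85. Kcnj15, at 3.05 here, was at 1.67 with the mean background added, where Kcnj10 was at 1.79.

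Markers of cells that are known to carry Kir4.1 or Kir5.1 outside the sensory epithelium were measured on these arrays, and their level was not even among the adult arrays. Of 9 markers of strial intermediate cells and melanocytes, 8 were measured, and the test called 1 in each direction. Dct, an enzyme of pigment synthesis, gave 948, 786 and 1114 on the P3 arrays and 1197, 4484 and 5477 on adult replicates 1, 2 and 3. Tyr, the tyrosinase that starts pigment synthesis, gave 149, 134 and 198 at P3 and 86.3, 404 and 532 in the adult. For both markers adult replicate 1 was the lowest adult array and replicate 3 the highest, as for Kcnj10. Here too nothing is read from an order of 3 arrays. Without adult replicate 1 both Dct and Tyr were called higher in the adult. Mitf, the transcription factor of melanocytes, rose by 2.04 (SE 0.34), a call lost without adult replicate 3 (adjusted p = 0.0612), and Pmel, a matrix protein of pigment granules, fell by 2.66 (SE 0.42). With all arrays scaled to the same median neither was called (adjusted p = 0.108 for Mitf and 0.0591 for Pmel). The summed signal of the 8 was 1711 to 2379 at P3 and 2071, 7478 and 9036 on adult replicates 1, 2 and 3. On this sum the adult arrays were 0.10, 1.95 and 2.23 log2 units above the P3 mean, while Kcnj10 was 1.04, 2.17 and 2.34 above its own P3 mean. Most of the sum on each adult array was Dct, while Pmel added 43.8, 24.9 and 31.3 on adult replicates 1, 2 and 3. Tyrp1 was above background on no array. The part of these cells in the Kcnj10 difference was not tested.

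Of 8 markers of strial marginal cells, 6 were measured and none was called by limma, 2 having an unadjusted p under 0.05. Their sum was 774 to 1064 at P3 and 899, 2467 and 2709 on adult replicates 1, 2 and 3, so adult replicate 1 lay within the P3 range. Of 4 basal cell markers 1 was called, Slc2a1, a glucose transporter that was higher in the adult, and it was called with all arrays or without P3 replicate 1 but not without any other array (adjusted p = 0.0633 to 0.146). Their sum was 2948 to 3407 at P3 and 4527 to 4846 in the adult.

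Of 9 markers of spiral ligament fibrocytes, all were measured and 5 were called higher in the adult. Coch, the matrix protein cochlin, rose from 462, 845 and 682 on the P3 arrays to 12330, 8497 and 12240 on the adult arrays, or 4.08 log2 units (limma adjusted p = 0.000627, SE 0.32). The transporter Slc4a11 rose by 6.90 (SE 0.46), and Otos, which encodes otospiralin, rose by 2.40 (SE 0.35). Other fibrocyte markers lay the other way without being called in the main fit, with stages that did not overlap. Pou3f4 and Tbx18, transcription factors, had differences of -1.01 (limma adjusted p = 0.0577) and -1.18 (adjusted p = 0.117), and Otor, a secreted protein, had -1.80 (adjusted p = 0.167), or -0.91 without P3 replicate 1. Pou3f4 was called higher at P3 with quantile normalization (limma adjusted p = 0.0454), with signals floored at background (adjusted p = 0.0478) and with the replicate block (adjusted p = 0.0395). Otor was called higher at P3 with quantile normalization (limma adjusted p = 0.0124). Adult replicate 2, the highest for Kcnj16, was the lowest for Coch and Otos but the highest for Gjb6 of the same list. Slc4a11 was highest on adult replicate 3, so the markers shared no order of the adult arrays. The summed signal of the list was 65590, 20230 and 16620 on P3 replicates 1, 2 and 3, and 36580 to 49080 in the adult. Most of the sum on P3 replicate 1 was Otor, with 38570, and Car3, another marker of the list, with 21520. P3 replicates 2 and 3 lay below all adult arrays. Of 6 markers of root and outer sulcus cells, 2 were called higher in the adult, Slc26a4 and Slc26a7. Slc26a7, an anion exchanger, lost its call when P3 replicate 3 or any adult array was left out (adjusted p = 0.0571 to 0.107). The sums overlapped, at 6880 to 23910 at P3 and 9044 to 15280 in the adult. Their part in the Kcnj16 difference was not tested.

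Markers of cell types of the dissected epithelium moved in both directions. Of 10 supporting cell markers, 9 were measured, and Sox2 and Jag1, a Notch ligand, fell by 2.48 and 2.15 on the log2 scale, the call of Jag1 being lost with the same median (adjusted p = 0.0722), while S100a1 rose by 2.07 at its brightest probe set, a call that held without P3 replicate 1 or adult replicate 2 but was lost without any of the other arrays (adjusted p = 0.0587 to 0.0957). That is not the S100a1 probe set named as nearest to Kcnj16, whose difference was 2.35. Their sum was 6522 to 9793 at P3 and 12050 to 15570 in the adult. Of 10 hair cell markers, 6 were measured and none was called by limma, 1 having an unadjusted p under 0.05. Their sum was 1167 to 1437 at P3 and 4377, 1519 and 2332 on adult replicates 1, 2 and 3. Most of this sum on adult replicate 1 was Pvalb, a calcium buffer that neurons also carry, with 1057, 707 and 659 at P3 and 4035, 926 and 1745 in the adult. The median log2 difference of the 6 was -0.22.

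The summed signals of the glial and neural lists were highest on adult replicate 1, the array with the lowest adult signal of Kcnj10 and Kcnj16, though not every marker followed its sum. S100b was highest on adult replicate 3 and Gjb6 was lowest of the adult arrays on replicate 1. Adult replicate 1 also had the highest background level and Gapdh ratio of the adult arrays, and the part of this was not tested. Of 8 measured markers of satellite glia and Schwann cells, S100b rose by 2.30 (SE 0.30) and Fabp7, a fatty acid binding protein of immature glia, fell by 2.97 (SE 0.30). The sum of the 8 was 11320 to 16290 at P3 and 29800, 12730 and 22040 on adult replicates 1, 2 and 3. Of 10 astrocyte markers 4 were called higher in the adult. Glul, the glutamine synthetase of glia, rose by 2.22 (SE 0.26), and Gjb6 and Aldh1l1, a folate enzyme, were also called. The call of Aldh1l1 was lost without any single array other than P3 replicate 1. Gfap, an intermediate filament of astrocytes, gave a signal of 274 on adult replicate 1 and of 9.53 and 16.2 on the other adult arrays. It passed the filter through the adult arrays alone. It was higher in the adult by at least 2.77-fold, and this call was lost without any single array (adjusted p up to 0.192, without adult replicate 1) and with signals floored at background, the scale of that bound (adjusted p = 0.519). The astrocyte sum was 3414 to 4216 at P3 and 13810, 10010 and 10130 in the adult. Most of it on each adult array was Glul, with 5566, 3873 and 4019, and Gjb6, with 2472, 4563 and 4373. Gjb6 is also on the endolymph and fibrocyte lists, and 6 of the 10 astrocyte markers were not called. Of 6 measured oligodendrocyte markers 1 was called, Mobp, a protein of central myelin, with signals of 877, 20.4 and 74.2 on the adult arrays. Mobp too passed the filter through the adult arrays alone. It was higher in the adult by at least 8.74-fold, a call lost when adult replicate 1 or 3 was left out (adjusted p = 0.0569 and 0.0803), and with signals floored at background, the scale of that bound (adjusted p = 0.116). It was also lost with the mean background added (adjusted p = 0.0741) and without the intensity trend (adjusted p = 0.0512). A filter on 4 arrays removed this probe set, and the Mobp probe set that stayed had a log2 difference of 1.51 (limma adjusted p = 0.482). Olig2 was above background on no array. The oligodendrocyte sum was 2238 to 4227 at P3 and 7934, 2997 and 4002 in the adult. Of 9 neuronal markers, Snap25 and Scn8a rose by 2.82 and 3.33 and Gap43, a protein of growing axons, fell by 3.38, a call lost without adult replicate 3 (adjusted p = 0.0608). The neuronal sum was 4537 to 5177 at P3 and 20690, 7411 and 10490 on adult replicates 1, 2 and 3. The part of glia and neurons in the differences of Kcnj10 and Kcnj16 was not tested.

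**Figure D3:**
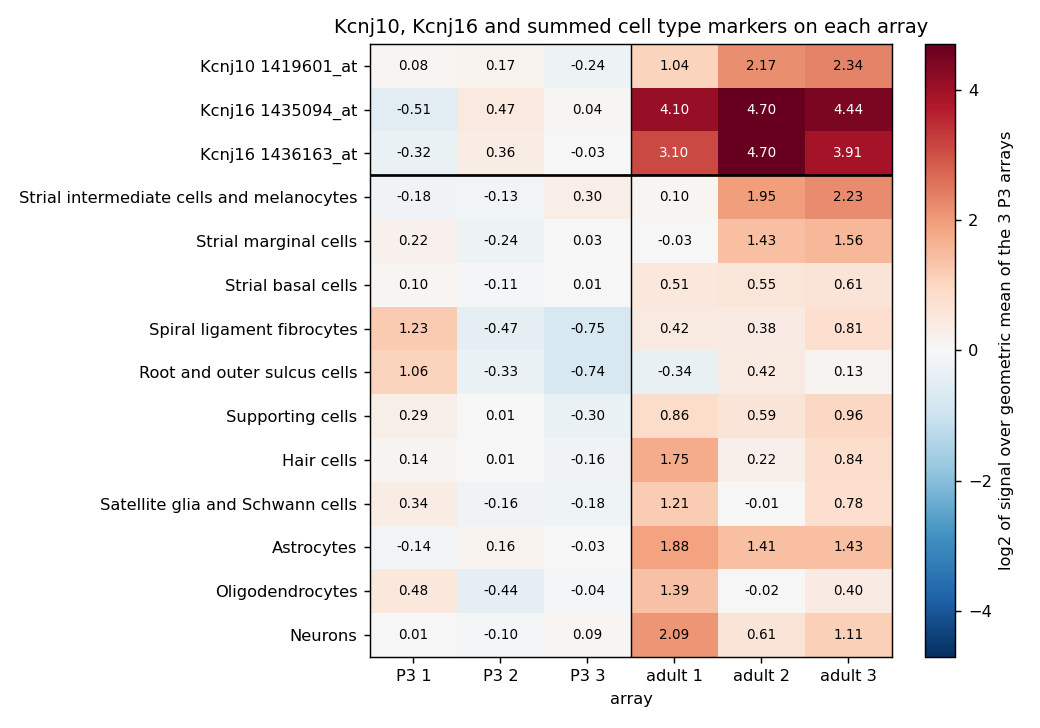
Log2 of the signal of the Kcnj10 and Kcnj16 probe sets (top rows) and of the summed signal of 11 cell type marker lists over the geometric mean of the 3 P3 arrays, for each array. On adult replicate 1 Kcnj10 is 1.04 above its P3 mean and the strial intermediate cell list 0.10, while the neuronal list is at its highest value of 2.09.

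The genes beside Kcnj10 and Kcnj16 in the genome were also looked up, the 3 nearest protein-coding genes on each side in GRCm38.p6, a rule set after the values of the channels were known. Kcnj9, another channel gene, ends 11.9 kb before Kcnj10 and did not pass the filter, and Pigm, an enzyme of membrane anchor synthesis, starts 2.45 kb after it. Pigm had a log2 difference of -0.97 (limma adjusted p = 0.172), and Igsf8, 21.4 kb before, was not called (adjusted p = 0.990). Farther off, at 84.5 and 108 kb, Slamf9, a receptor of immune cells, was higher in the adult by at least 2.63-fold (adjusted p = 0.0138 on the signals as measured, and 0.250 with signals floored at background, the scale of the bound) and Igsf9, an adhesion molecule of the immunoglobulin superfamily, fell by 1.97 on the log2 scale (adjusted p = 0.0138). Slamf9 passed the filter through the adult arrays alone. The call of Slamf9 was lost without adult replicate 2 or 3, and that of Igsf9 without adult replicate 3 or without either of P3 replicates 2 and 3. Kcnj2, which encodes Kir2.1 and starts 38.2 kb after Kcnj16, was above background on no array. On the other side of Kcnj16, Map2k6, a kinase of the p38 pathway, lies 442 kb away and rose from 71.9, 63.5 and 93.0 at P3 to 198, 366 and 379 in the adult (log2 difference 2.00, limma adjusted p = 0.00864), a call lost without adult replicate 3 (adjusted p = 0.0580) and with the same median (adjusted p = 0.0818). Abca5, a lipid transporter at 630 kb, rose by 1.36 (adjusted p = 0.0431), a call lost without any single array, while Abca6 at 716 kb was not called. Sox9, a transcription factor at 1754 kb on the higher side, was not called either.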

How the data were processed

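Each of the 6 arrays (Affymetrix Mouse Genome) measured RNA from a pool of 20 mice, 3 pools per stage. The authors deposited intensities, the linear signals of the MAS5.0 algorithm scaled per array, and the submitters' notes name GCOS 1.2 while the methods name another version. No normalization was added to the deposited intensities. In the platform annotation, 34945 probe sets named 1 gene, 932 several and 9160 none. Of 140 list genes, 125 had a probe set naming that gene alone. Control probe sets, 64 in all, were left out.

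Probe sets with a signal over background on 3 or more arrays entered a linear model of stage, fitted to log2 signals in R 4.3.3 with limma 3.58.1 (lmFit, then eBayes with trend). A call needed a Benjamini-Hochberg adjusted p below 0.05 together with a fold of 2 or more. A gene was represented by its brightest such probe set. Other kept probe sets of some called genes were not called. For Atp1b2, Kcnk1, Mitf, Slc26a7, Gfap and Mobp, 1 of 2 kept probe sets was called. The count was 1 of 3 for Jag1, 2 of 4 for Kcnc1, 3 of 4 for Scn8a and 4 of 5 for Atp1b1. "At least" marks a fold taken against the background level, where no array of the lower stage was above it. Such probe sets passed the filter through the higher stage alone, so their calls are not independent of the filter. The number of arrays limits the precision, since 3 against 3 cannot give a permutation p under 0.1. The genes, lists and tests were chosen with earlier results of these data known. Named were every probe set of Kcnj10 and Kcnj16, every gene of the Kir and partner lists, called genes and some uncalled genes of the other lists, in part picked after their values were seen, fixed defining markers, and the 5 most like probe sets by each measure. Alternatives were quantile or median scaling, a floor at or addition of background, other filters, no trend, a replicate block, each array left out, arithmetic means, all probe sets of a gene and SAM with 20 relabellings. The fit and SAM were tested on simulated data. Promoter windows are RefSeq's of GRCm38.p6.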

Additional observations from a re-analysis of the deposited data

How the results depend on the processing

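Kcnj10 and Kcnj16 kept their direction under all alternatives run. The log2 difference of Kcnj10 was 1.85 and lay between 1.61 and 2.26 with single arrays left out. That of Kcnj16 was 4.42, lay between 4.16 and 4.65 with single arrays left out, and was 3.99 with the mean background added. The number of differential probe sets was 2109, and it was 562 with each array scaled to the same median, 899 without the intensity trend, 2805 by SAM and 576 to 2839 with single arrays left out. With the same median, the Kir family count of 1 became 0, the endolymph potassium count of 5 became 3 and the two-pore channel count of 2 became 0. The two-pore count was 1 with quantile normalization and 1 without the trend, and the Kir count was 0 with signals floored at background. With single arrays left out, the Kir count was 0 to 1, the partner count, 0 in the fit of all arrays, was 0 to 1, the endolymph count was 4 to 6, the two-pore count was 1 to 2 and the hair cell channel count stayed at 2. Of other called genes named, Atp1b1, Gjb6, Kcnk1, Kcnk5, Mitf, Pmel, Slc2a1, Slc26a7, Jag1, Gfap, Aldh1l1, Map2k6 and Abca5 also lost their calls with the same median, and Atp1b1, Kcnk5, Mitf, Slc2a1, Slc26a7, S100a1, Gfap, Aldh1l1, Mobp and Abca5 lost theirs without the trend. Some uncalled genes changed sign with single arrays left out, when their differences ran from -0.85 to 0.17 for Kcnj3, from -0.48 to 0.0753 for Kcnj11, from -0.23 to 0.0731 for Nedd4l, from -0.37 to 0.87 for Aqp4, from -0.42 to 0.47 for Igsf8, from -0.96 to 0.0230 for Abca6 and from -0.0570 to 0.37 for Sox9. Igsf8, at -0.0147 as reported, was 0.0181 with quantile normalization and 0.00873 with the same median. The cause of these changes was not tested. Replicate numbers were shared by the stages, but same-numbered arrays had correlations of deviations of 0.182, 0.213 and 0.0762, so the numbers were not taken as pairs, although each P3 array correlated best with the adult array of its own number. With the replicate block 2649 probe sets were differential, and no list count changed. Signals under background, as for Kcnj16 on P3 replicate 1, limit how well a fold is known.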
